A study of Mus musculus with 4 samples.

Results

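Transcripts of 9 cathepsins (Ctsa, Ctsb, Ctsc, Ctsd, Ctsh, Ctsk, Ctsl, Ctss and Ctsz) and of Acp5 were followed through the cell types of the aged mouse kidney. The 10 genes were taken by symbol from the 31054 features of the deposited count tables, and each symbol belonged to 1 gene identifier. All 4 libraries came from kidneys of male C57BL/6 mice that were 19 months old. The animals had received for 1 month either BPTES, an allosteric inhibitor of glutaminase, in 2 libraries (BPTES 1 and 2), or its solvent DMSO as the vehicle control in the other 2 (DMSO 1 and 2). Digested kidney was sorted on the leukocyte antigen CD45, and 3' single-cell libraries were made from mixtures of 20000 cells without and 9000 cells with that antigen. Nothing in the labels says whether a library came from 1 animal or from pooled animals, so p-values measure only the spread between these libraries.

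Cathepsins are proteases that are made as inactive precursors, carried to endosomes and lysosomes, and activated there at acid pH. Most of them are cysteine proteases, whereas cathepsin D is an aspartic protease and cathepsin A a serine carboxypeptidase. In the kidney the proximal tubule degrades filtered proteins with them, and in myeloid cells they digest engulfed material and prepare antigens for MHC class II. Acp5, tartrate-resistant acid phosphatase, is an iron-containing enzyme known from osteoclasts and some macrophages.

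Cell classes were rebuilt from marker genes, with the 10 genes themselves kept out of the clustering. Of 76278 barcodes, 46738 cells were kept (10849 to 12076 per library), and the libraries held between 249881074 and 297947661 UMIs. A pair of libraries shared 90 to 114 barcodes. The classes described most were proximal tubule (21736 cells), macrophages (3495), monocytes (1597), dendritic cells (1491) and neutrophils (1064). Each was named from its own markers, such as C1qa, C1qb and C1qc for macrophages, and 2384 cells in 4 clusters stayed unnamed. The largest of the unnamed clusters, with 1395 cells of low depth, scored highest on the macrophage markers.

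The genes lie on 6 chromosomes. In the RefSeq annotation of GRCm38.p6, Ctsk (chr3:95499210-95509387) and Ctss (chr3:95526786-95556405) are neighbours 17399 bases apart, and Acp5 lies at chr9:22126727-22135746. The letters CACGTG form the E-box that TFEB, TFE3 and MITF, the factors known for lysosomal genes, bind. The word reads the same on both strands and was the only motif searched. RefSeq promoter windows, running from 250 bases before to 50 bases after a start site, were matched for 8 of the 10 genes (11 windows). CACGTG occurred in 3 of those 11 windows, 1 each of Ctsa, Ctsd and Ctsl, and in 7.15% of all 32851 windows of the same 300-base length. The windows of Ctsc, Ctsk, Ctss, Ctsz and Acp5 did not hold these letters, and the genes not matched were Ctsb and Ctsh. The 3 windows with the word are shown because Ctsa and Ctsd were among the genes called lower in myeloid cells and Ctsl was not, and the capitals mark CACGTG. The Ctsa window is chr2:164833523-164833822 on the plus strand, with the word at -12 and at 5 from the start site. The other Ctsa window, chr2:164832622-164832921, did not hold the word. The Ctsd window is chr7:142387778-142388077 on the minus strand, with the word at -245 and -98. The Ctsl window is chr13:64370471-64370770 on the minus strand, with the word at -236. The Ctsa and Ctsl windows shown lie inside the annotated genes (chr2:164832872-164841032 and chr13:64361890-64370772). 
Ctsa: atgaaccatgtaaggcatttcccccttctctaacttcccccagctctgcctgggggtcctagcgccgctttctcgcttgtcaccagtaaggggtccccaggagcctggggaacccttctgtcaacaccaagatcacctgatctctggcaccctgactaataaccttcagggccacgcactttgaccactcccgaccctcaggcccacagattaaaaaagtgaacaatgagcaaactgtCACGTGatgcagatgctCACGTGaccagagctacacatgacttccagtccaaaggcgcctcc
Ctsd: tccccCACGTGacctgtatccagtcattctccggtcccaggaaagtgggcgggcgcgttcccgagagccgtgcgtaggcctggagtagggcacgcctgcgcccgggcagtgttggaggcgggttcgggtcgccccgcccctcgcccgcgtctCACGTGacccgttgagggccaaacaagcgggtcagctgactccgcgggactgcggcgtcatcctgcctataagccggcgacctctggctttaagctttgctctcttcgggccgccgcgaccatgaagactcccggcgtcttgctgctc
Ctsl: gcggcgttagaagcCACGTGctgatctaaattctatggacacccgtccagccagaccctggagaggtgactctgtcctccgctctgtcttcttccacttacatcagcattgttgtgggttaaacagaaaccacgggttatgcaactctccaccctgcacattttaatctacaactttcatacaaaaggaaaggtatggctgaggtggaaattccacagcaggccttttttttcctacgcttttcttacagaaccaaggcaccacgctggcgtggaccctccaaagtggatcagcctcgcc

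The cathepsins did not share 1 pattern over the kidney. Levels across classes are given as CPM, the UMIs of a gene per 1000000 UMIs of a class, scaled together over 12 classes. They are the mean ± SD of the 4 libraries of both treatments, and describe each gene across classes, without a test. Other named classes, among them fibroblasts, had under 50 cells in a library and have no levels here. CPM in the treatment comparisons were scaled within each class instead, so the 2 sets of CPM differ. CPM per cluster and summed CPM of markers were not scaled further. Ctss, which cleaves the invariant chain of MHC class II, had 2967 ± 266 CPM in macrophages, 2733 ± 169 in monocytes and 1926 ± 307 in dendritic cells, where the first 2 classes overlapped. In proximal tubule it had 6.90 ± 1.63 CPM.

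Ctsc (dipeptidyl peptidase I, which activates granule proteases), Ctsh (an aminopeptidase) and Ctsz (a carboxypeptidase, also called cathepsin X) also had their highest means in macrophages, at 1069 ± 263, 596 ± 30.4 and 555 ± 128 CPM. For each of these 3 genes the macrophage values overlapped those of the next class. Ctsa, which also protects neuraminidase and β-galactosidase in the lysosome, and Ctsb, an endopeptidase that can also trim C-terminal dipeptides, were highest in monocytes at 357 ± 56.1 and 1813 ± 690 CPM, again overlapping macrophages.

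Ctsl and Ctsd had other orders. Ctsl, a broad endopeptidase, was highest in proximal tubule at 579 ± 81.6 CPM, and no proximal tubule library overlapped endothelium, the next class, at 248 ± 19.1 CPM. In macrophages Ctsl had 102 ± 32.0 CPM. Ctsd had 545 ± 255 CPM in neutrophils, 392 ± 45 in collecting duct principal cells, 355 ± 68.3 in the distal convoluted tubule and 342 ± 69.2 in the thick ascending limb. These 4 classes overlapped one another in order, as did monocytes at 320 ± 206 and macrophages at 214 ± 87.4 CPM.

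Acp5 was present in lymphocytes and proximal tubule as well as in myeloid cells. Its mean was 113 ± 81.2 CPM in monocytes, where single libraries ranged from 58.4 to 232 CPM, and 90.9 ± 5.65 in T cells. B cells had 67.2 ± 3.12, innate lymphoid cells 62.4 ± 13.3, macrophages 48.0 ± 21.7 and proximal tubule 41.8 ± 4.62 CPM. T cells stood above B cells without overlap, and the classes from B cells down to proximal tubule overlapped their neighbours. In endothelium Acp5 had 1.01 ± 0.338 CPM. Ctsk, the collagen-degrading cathepsin of osteoclasts, stayed below 5 CPM on average in all 12 classes, with 4.44 ± 2.18 in neutrophils and 0.738 ± 0.363 in macrophages. Fibroblasts are not among these classes.

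**Figure D1:**
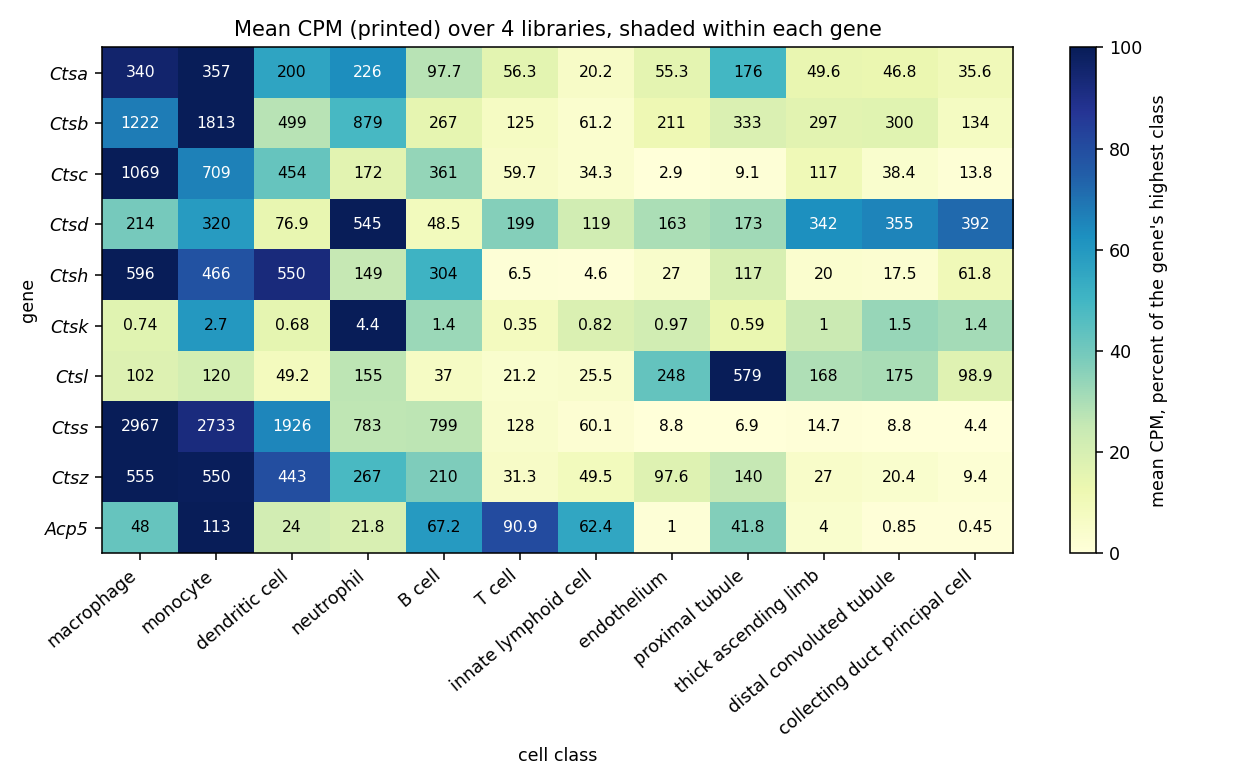
Mean CPM over the 4 libraries for each gene (rows) in 12 cell classes (columns); the number in a cell is the CPM, and the shade is the percent of that gene's highest class. Ctss, Ctsc, Ctsh and Ctsz are darkest in macrophages, Ctsl in proximal tubule at 579 CPM, and Acp5 is spread over monocytes, T cells, B cells and innate lymphoid cells.

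In macrophages 6 of the 10 genes fell with BPTES and none rose. They were Ctsa, Ctsb, Ctsc, Ctsd, Ctsz and Acp5 (edgeR's quasi-likelihood test on UMIs summed per library, Benjamini-Hochberg adjusted p under 0.05). Of all 13921 genes tested 3.78% were called lower and 2.06% higher. The 10 genes were chosen with earlier results of these data known, so such counts and shares are set side by side as a description. The median log2 fold change of the 10 genes was -0.61, beside a median over all genes that rounded to 0. BPTES values lay below both DMSO values for 9 of the 10 genes, as for 29.7% of all genes.

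Ctsd, the aspartic protease, had 139 and 138 CPM in BPTES 1 and 2 and 244 and 310 CPM in DMSO 1 and 2. Both BPTES libraries lay well under both DMSO libraries, and the log2 fold change was -0.997 ± 0.12 (SE; adjusted p = 0.0169). Acp5 had 29.6 and 30.7 CPM with BPTES against 52.5 and 73.9 with DMSO, a log2 fold change of -1.07 ± 0.18 (SE; adjusted p = 0.0408). For both genes the BPTES libraries were close to each other, and the DMSO libraries were further apart.

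Among the cysteine cathepsins, Ctsb had 860 and 892 CPM with BPTES and 1292 and 1710 with DMSO (log2 fold change -0.78 ± 0.14, adjusted p = 0.0344). Ctsc had 848 and 806 CPM against 1201 and 1306 (-0.60 ± 0.09, adjusted p = 0.0202). Ctsz had 432 and 442 CPM against 616 and 672 (-0.56 ± 0.09, adjusted p = 0.0206). None of these 3 genes overlapped between the groups. Ctsa, the serine carboxypeptidase, changed least among the genes called, with 287 and 292 CPM against 367 and 379 (-0.37 ± 0.08, adjusted p = 0.0427).

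The other 4 genes did not pass the test in macrophages. Ctss had 2607 and 2758 CPM with BPTES against 3079 and 3110 with DMSO, without overlap, and a log2 fold change of -0.21 ± 0.09 (adjusted p = 0.188). Ctsl had 78.6 and 78.4 CPM against 97.8 and 144 (-0.62 ± 0.20, adjusted p = 0.152). Ctsh, with 540 and 589 CPM against 578 and 613, overlapped between the groups (-0.08 ± 0.09, adjusted p = 0.624). Ctsk had under 2 CPM in every library (-1.24 ± 0.46, adjusted p = 0.14).

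**Figure D2:**
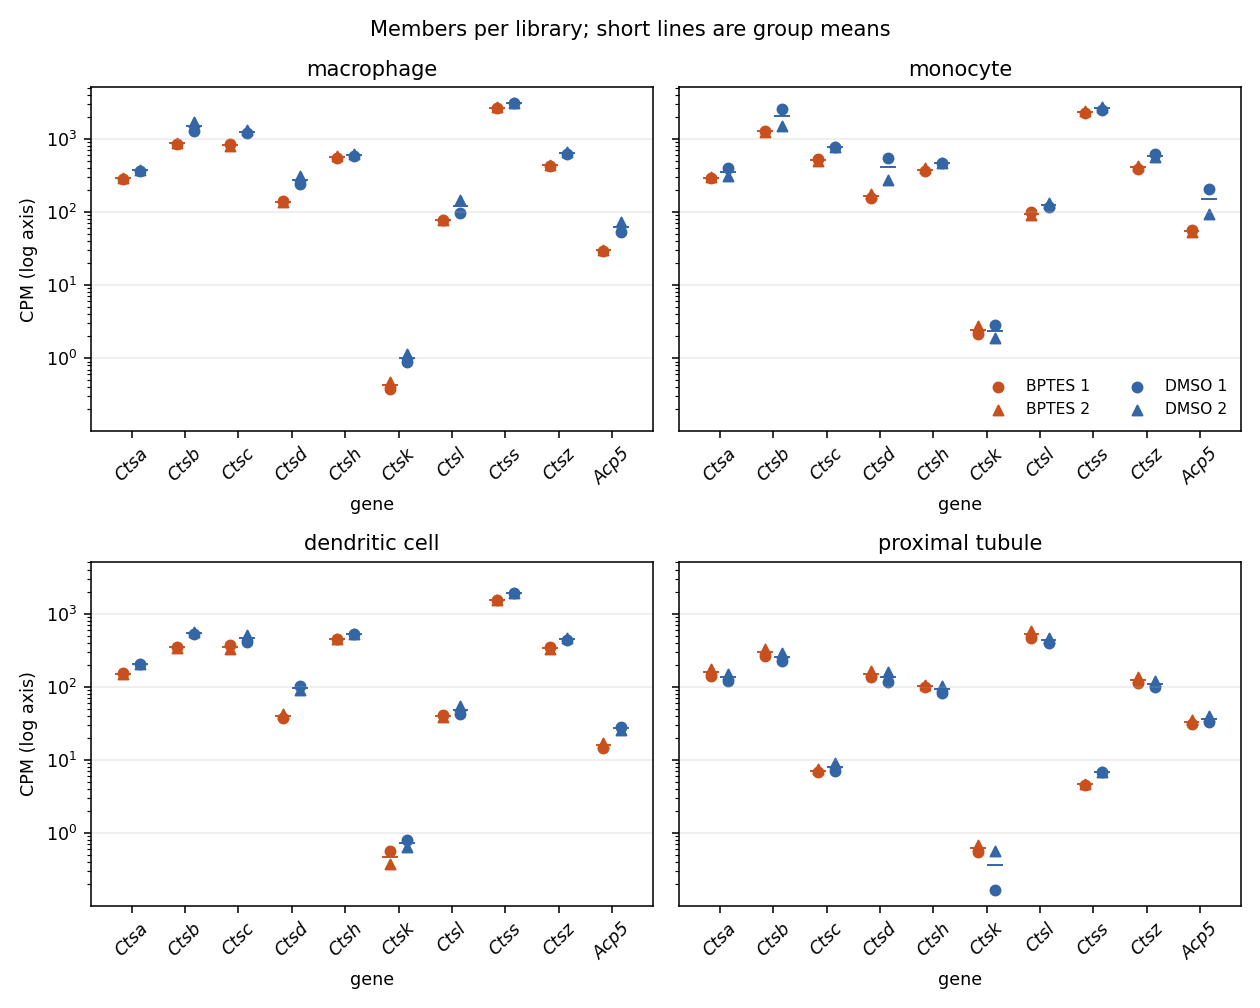
CPM of each gene (log axis) in the 2 BPTES and 2 DMSO libraries for macrophages, monocytes, dendritic cells and proximal tubule; points are libraries and short lines group means. In macrophages BPTES points lie below DMSO points for 9 of 10 genes (Acp5 29.6 and 30.7 against 52.5 and 73.9 CPM), whereas most proximal tubule values overlap.

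CPM are relative to all UMIs of the class, and macrophages of BPTES libraries also held fewer UMIs in all (medians of 14810 and 14356 per cell, against 17003 and 20011). The summed CPM of the 8 macrophage markers was 14422 and 13920 with BPTES and 18017 and 26421 with DMSO, with 1 of the 8 called lower and none at 0. The 12 proximal tubule markers summed to 602 and 428 CPM against 350 and 282 in macrophages, with 3 of the 12 called higher and none at 0. Cycling markers summed to 23.2 and 21.3 CPM against 39.3 and 42.1, with 1 of 5 called lower and none at 0. Neutrophil markers summed to 53.3 and 56.7 CPM against 64.8 and 145, with none called and 1 of 6 at 0. Dendritic markers went the other way, at 291 and 293 CPM against 284 and 209, with 1 of 10 called lower and none at 0. Their part in the cathepsin values was not tested. Without BPTES 1 or without BPTES 2, 0 of the 10 genes were called in macrophages, against 7 and 5 without DMSO 1 and DMSO 2. The share of all genes called in either direction moved with them, at 0.327% and 0.0136% against 11.4% and 6.04%.

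Both well-filled macrophage clusters had the lower values. The genes were given per cluster as a description, for clusters with at least 30 cells in each library. In cluster 5 (2415 cells) 9 of the 10 genes lay lower with BPTES without overlap, as did 29.7% of the 15053 genes with at least 10 UMIs there. In cluster 17 (874 cells) all 10 did, as did 24.4% of 14778 genes. Both were led by C1qa, C1qb and C1qc. Acp5 in cluster 5 had 11.6 and 17.1 CPM with BPTES and 43.6 and 76.4 with DMSO, a ratio of means of 0.24. In cluster 17 it had 51.1 and 49.8 CPM against 65.1 and 68.4, a ratio of 0.756, so the DMSO values of the 2 clusters overlapped and the BPTES values did not. Ctsd had a ratio of 0.419 in cluster 5 and 0.598 in cluster 17. With the makeup of these 2 clusters held the same in every library, the log2 ratios in macrophages were -1.13 for Acp5 and -1.04 for Ctsd. The smaller cluster 37 was left out there. It held 4.41% and 3.68% of BPTES macrophages and 5.49% and 9.33% of DMSO ones.

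**Figure D3:**
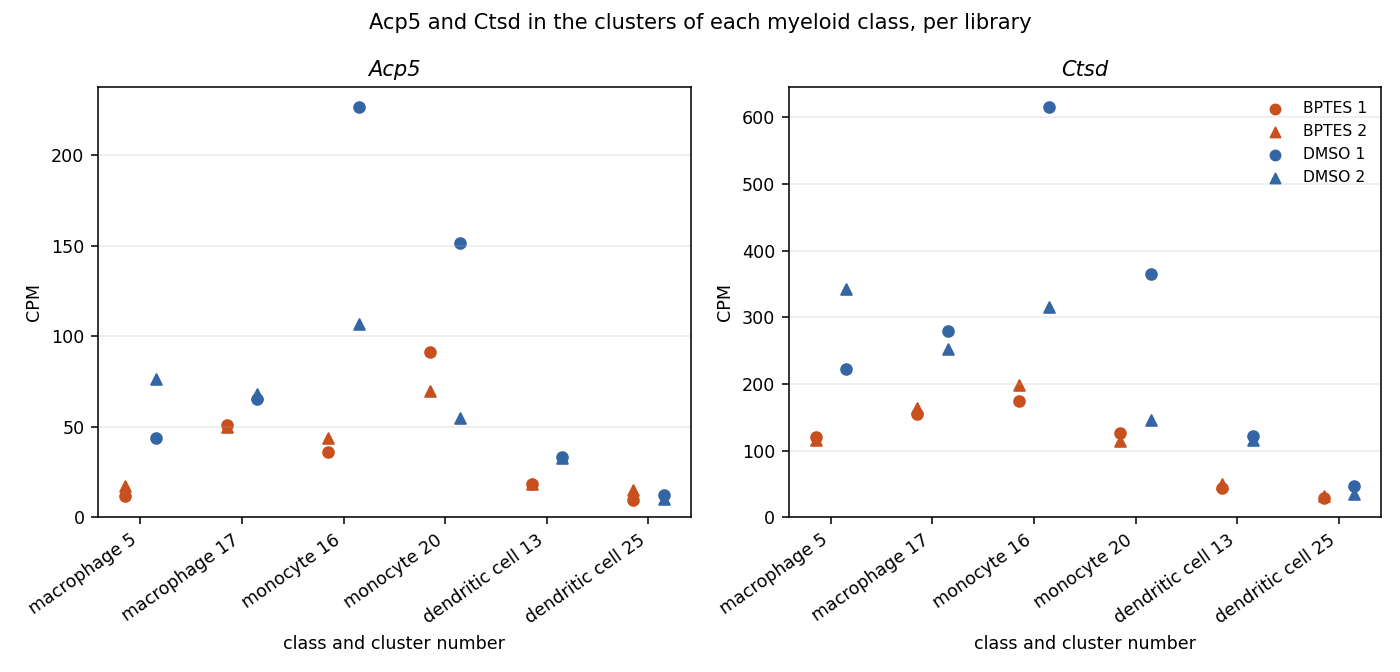
CPM of Acp5 (left) and Ctsd (right) in the clusters of macrophages, monocytes and dendritic cells with at least 30 cells in each library; points are libraries. Acp5 shows the widest gap in macrophage cluster 5 (11.6 and 17.1 against 43.6 and 76.4 CPM) and monocyte cluster 16, and overlaps in monocyte cluster 20 and dendritic cluster 25.

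In monocytes 1 gene fell, and DMSO 1 stood far above DMSO 2 for several of the others. Ctsc passed the test, with 527 and 504 CPM against 781 and 779 (log2 fold change -0.60 ± 0.10, adjusted p = 0.0326), where 1.22% of 12285 genes were called lower. BPTES values lay below DMSO values for 9 of 10 genes, as for 28.5% of all genes. Ctsk was the exception, at 2.15 and 2.78 against 2.86 and 1.89 CPM.

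Acp5 in monocytes had 56.4 and 53.3 CPM with BPTES and 208 and 94.5 with DMSO (-1.47 ± 0.45, adjusted p = 0.195). Ctsd had 156 and 178 CPM against 555 and 276 (-1.32 ± 0.40, adjusted p = 0.186), and Ctsb 1290 and 1244 against 1525 and 2540 in DMSO 2 and DMSO 1 (-0.68 ± 0.25, adjusted p = 0.188). In these 3 genes the DMSO libraries differed from each other by more than DMSO 2 differed from BPTES. Ctsz came close to the threshold with 393 and 430 CPM against 613 and 571 (-0.53 ± 0.11, adjusted p = 0.0503). Ctsl (-0.39 ± 0.11, adjusted p = 0.097) and Ctsh (-0.30 ± 0.11, adjusted p = 0.154) also had groups that did not overlap.

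The macrophage markers in monocytes summed to 5917 and 4342 CPM with BPTES and 12133 and 9465 with DMSO, with 5 of 8 called lower and none at 0. T cell markers there summed to 26.9 and 28.2 CPM against 75.4 and 92.8 (4 of 6 called lower), neutrophil markers to 169 and 157 against 261 and 540 (1 of 6 lower), and endothelial markers to 207 and 231 against 88.1 and 114 (1 of 8 higher), none at 0. Plasma cell markers summed to 36.7 and 39.1 CPM against 9.04 and 11.0 (1 of 6 higher, none at 0), and were also higher in macrophages, at 34.5 and 54.6 against 15.4 and 11.3. The part of these lists in the result was not tested. Cluster 16, led by Fn1, Chil3 and Lyz2, held 46.6% and 53.1% of BPTES monocytes and 65.1% and 57.5% of DMSO monocytes. There Acp5 had 36.2 and 43.7 CPM against 227 and 107. In cluster 20, led by Adgre4, Ear2 and Cd300e and holding Ace and Treml4, Acp5 overlapped at 91.3 and 69.7 against 151 and 54.6 CPM. The number of genes called lower in monocytes was 0 without either BPTES library, 5 without DMSO 1 and 6 without DMSO 2, and the share of all genes called in either direction was 0.0864% and 0.054% without BPTES 1 and 2, 5.52% without DMSO 1 and 11% without DMSO 2.

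In dendritic cells 6 of the 9 genes tested fell with BPTES and none rose. They were Ctsa, Ctsb, Ctsd, Ctss, Ctsz and Acp5, where 2.64% of 13116 genes were called lower and 2.41% higher. All 9 had lower BPTES values without overlap, as did 28% of all genes, and their median log2 fold change was -0.42. Ctsk, the tenth gene, was under the count filter at below 1 CPM in every library.

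Ctsd had the lowest BPTES values relative to DMSO in dendritic cells, with 37.5 and 41.8 CPM against 103 and 88.9 (-1.28 ± 0.10, adjusted p = 0.00309). Acp5 had 14.6 and 16.8 CPM against 28.0 and 25.6 (-0.77 ± 0.12, adjusted p = 0.0166), and Ctsb 352 and 339 against 524 and 553 (-0.64 ± 0.06, adjusted p = 0.00472). In each case the 2 libraries of a group lay close together. Ctsa had 152 and 150 CPM against 206 and 204 (-0.44 ± 0.06, adjusted p = 0.0123), and Ctsz 346 and 326 against 440 and 460 (-0.42 ± 0.06, adjusted p = 0.0166).

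Ctss passed the test in dendritic cells, with 1508 and 1524 CPM against 1894 and 1922 (-0.33 ± 0.05, adjusted p = 0.0186). Ctsh (455 and 447 against 530 and 524 CPM, adjusted p = 0.0598) and Ctsc (369 and 326 against 408 and 511 CPM, adjusted p = 0.123) did not. Whether the Ctss effect differs between dendritic cells and macrophages was not tested.

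Values are given by dendritic cluster as a description. In cluster 13, led by Cd209a, Tnip3 and Ccl17, 9 of the 10 genes were lower without overlap, as were 25.8% of all genes with at least 10 UMIs, with ratios of means of 0.397 for Ctsd and 0.554 for Acp5. In cluster 25, led by Naaa, Xcr1 and Ifi205, 6 of the 9 genes with at least 10 UMIs were lower, as were 22.7% of all such genes, and the other 3 overlapped. Ctsk, with at most 2 UMIs in a library there, was higher. The difference between the clusters was not tested. There Acp5 overlapped at 9.64 and 15.1 against 12.3 and 10.1 CPM, and the Ctsd ratio was 0.754. Cluster 13 made up 61.9% and 58.1% of BPTES dendritic cells and 76.6% and 69.3% of DMSO ones. With the cluster makeup held the same in every library, the log2 ratio (of means, with no test) was -1.14 for Ctsd, -0.65 for Acp5 and -0.59 for Ctsb. It was -0.25 for Ctsa, -0.20 for Ctss and -0.08 for Ctsh, whose fitted log2 fold changes were -0.44, -0.33 and -0.23, and Ctsl then overlapped between the groups. Macrophage markers in the class summed to 2085 and 2325 CPM against 3596 and 5415, with none of 8 called and none at 0. T cell markers summed to 61.7 and 54.9 CPM against 82.8 and 117 (2 of 6 called lower, none at 0). The dendritic markers themselves summed to 2519 and 2415 CPM against 2193 and 2357, with 3 of 10 called higher, 2 lower and none at 0. The part of these lists in the result was not tested. At a finer clustering resolution, where a group of 546 cells led by Mmp12, Mgl2 and Tnip3 stayed unnamed, 1 gene (Ctsz) was called in the dendritic class, as were 1.85% of all genes in either direction. The log2 fold changes there were -0.44 for Ctsd (adjusted p = 0.272), -0.04 for Acp5, -0.07 for Ctsb and -0.28 for Ctsa. In macrophages at that resolution 5 genes were called, with -1.34 for Ctsd, -1.03 for Ctsb and -1.66 for Acp5, which was not called (adjusted p = 0.0857).

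No member passed the test in neutrophils, a class in which 0% of 9570 genes did. There were 2 with an unadjusted p under 0.05, as for 11.1% of all genes, and DESeq2 called 0. Ctsd had 266 and 262 CPM with BPTES and 316 and 636 with DMSO (-0.85 ± 0.32, adjusted p = 0.399). Ctss lay the other way, at 623 and 655 CPM with BPTES against 373 and 466 (0.61 ± 0.19, adjusted p = 0.353). With predicted doublets kept its log2 fold change in neutrophils was -0.14. The class joined cluster 14, led by S100a9 and S100a8, with the smaller cluster 41, led by Adgre4 and Ear2 as monocyte cluster 20 was. Cluster 41 held 16.3% and 19.1% of BPTES neutrophils and 6.94% and 7.57% of DMSO ones. The 9 monocyte markers summed to 800.2 and 707 CPM against 509.6 and 513 in the class, with none called and none at 0, and their part in the Ctss values was not tested.

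In proximal tubule none of the 10 genes passed edgeR's test, in a class where 1.17% of 16048 genes did. Ctss was the 1 gene with an unadjusted p under 0.05 (20.9% of all genes), and DESeq2 called it lower, along with 6.98% of all genes in either direction. The median log2 fold change of the 10 genes was 0.16, beside -0.01 over all genes. BPTES values lay below DMSO values for 1 gene (29.2% of all genes) and above them for 1 gene (28.9%).

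Ctsl, the cathepsin with its highest level in this class, had 469 and 582 CPM with BPTES and 399 and 467 with DMSO (0.28 ± 0.13, adjusted p = 0.275), and was the gene with higher values. Ctsb had 261 and 329 CPM against 223 and 288 (0.21 ± 0.16, adjusted p = 0.464), and Ctsd 135 and 164 against 115 and 157 (0.14 ± 0.16, adjusted p = 0.642). Both overlapped between the groups. Acp5 had 30.8 and 35.5 CPM against 32.3 and 39.3 (-0.11 ± 0.12, adjusted p = 0.592).

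Ctsa (0.22 ± 0.14, adjusted p = 0.378), Ctsz (0.18 ± 0.13, adjusted p = 0.452), Ctsh (0.15 ± 0.11, adjusted p = 0.443) and Ctsc (-0.17 ± 0.14, adjusted p = 0.487) overlapped as well. So did Ctsk, at under 1 CPM in each library (0.77 ± 0.52, adjusted p = 0.416). Over the class Ctss had 4.48 and 4.69 CPM against 6.82 and 6.73 (-0.56 ± 0.11, adjusted p = 0.0616).

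Values are also given by proximal tubule cluster, for the 7 clusters with at least 30 cells per library. Of 66 values (a gene with at least 10 UMIs in a cluster) 19 were lower with BPTES without overlap, beside 25.5% of such values over all genes, and 7 were higher, beside 17.1%. Ctss was among the lower ones in every one of the 7 clusters. Clusters 6 and 8, led by Gm42397 and 4921539H07Rik, had 5 of 10 genes lower each and none higher, with Ctsc, Ctss and Acp5 in both. Among all genes 27.1% were lower and 18.8% higher in cluster 6, and 28.8% and 20.4% in cluster 8. Ctsl was higher in clusters 0, 1 and 2. The makeup of the class also differed, since cluster 1 held 22.9% and 27.9% of BPTES cells and 16.5% and 16% of DMSO cells. Cluster 2 held 10.3% and 10.9% against 16.7% and 17.5%. Clusters 36 and 45 were in the class sums but too small to be given by cluster. Cluster 36 held 0.26% and 0.28% of BPTES cells against 1.95% and 1.83% of DMSO cells, and cluster 45 held 0.24% and 0.09% against 0.49% and 0.39%. The part of this makeup in the class values was not tested.

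**Figure D4:**
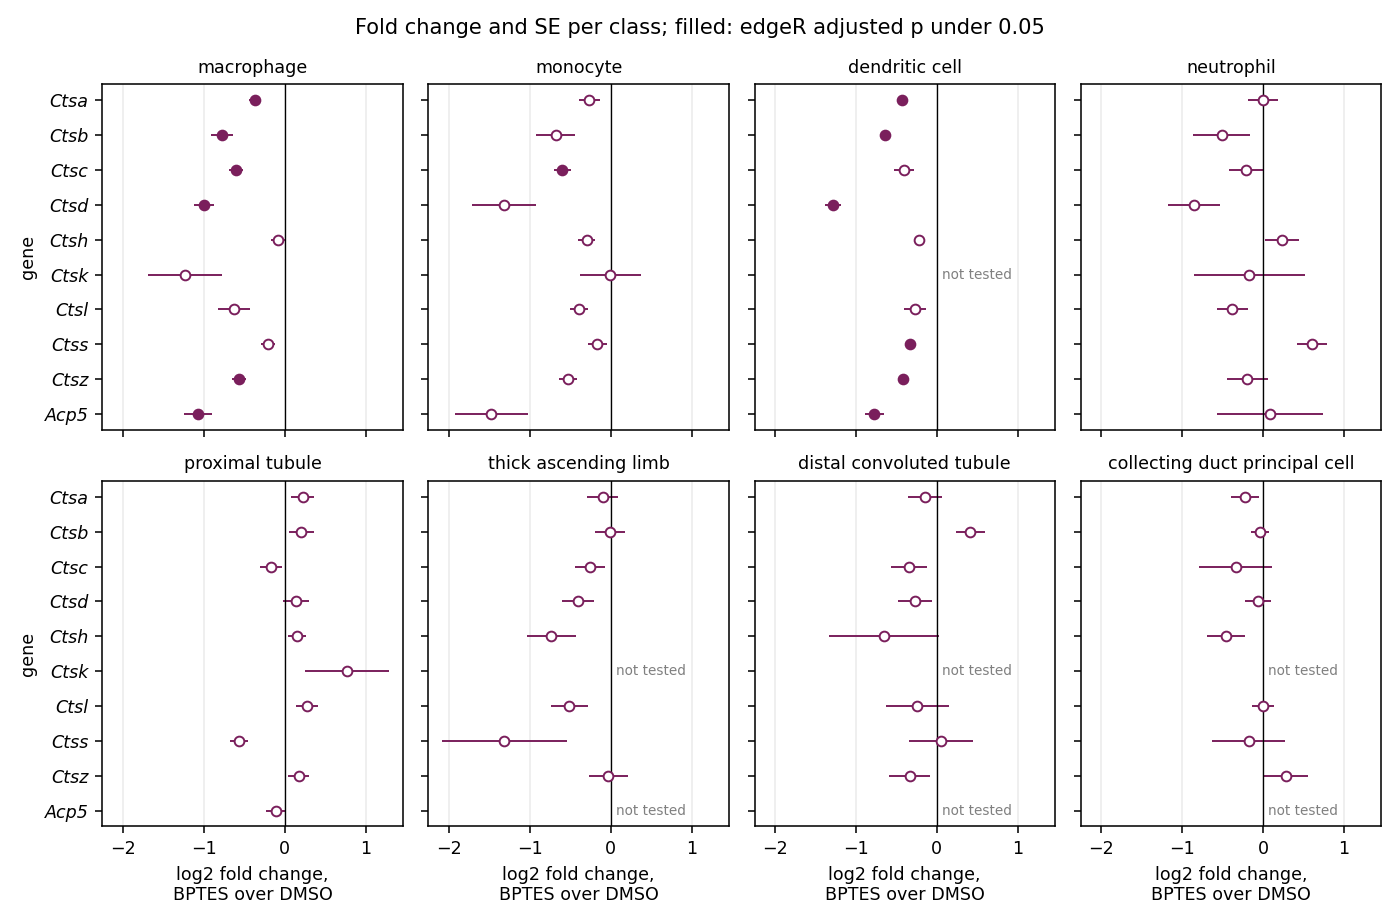
Log2 fold change, BPTES over DMSO, with its SE (bars) for each gene in 4 myeloid classes (top) and 4 tubule classes (bottom); filled points have an edgeR adjusted p under 0.05. Filled points are all below 0, with 6 in macrophages, 6 in dendritic cells and 1 in monocytes, and the 4 tubule classes and neutrophils have none.

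The treatment effect differed between macrophages and proximal tubule for 6 of the 10 genes, in a test of the interaction over both classes of the same libraries, where 2.03% of 17428 genes passed. The difference of log2 fold changes, macrophage minus proximal tubule, was -1.18 ± 0.13 for Ctsd (adjusted p = 0.00246), -1.01 ± 0.14 for Ctsb (adjusted p = 0.00549) and -0.98 ± 0.13 for Acp5 (adjusted p = 0.00455). It was -0.92 ± 0.16 for Ctsl and -0.78 ± 0.14 for Ctsz (both adjusted p = 0.0172), and -0.63 ± 0.14 for Ctsa (adjusted p = 0.0483). Ctsl thus differed between the classes although its effect passed the test in neither. Ctsc, Ctsh, Ctsk and Ctss did not pass, and for Ctss the difference was 0.31 ± 0.14 (adjusted p = 0.325), with the lower ratio in proximal tubule. The count was 0 with predicted doublets kept (0.0166% of all genes), 1 without BPTES 2 (0.292%), and between 5 and 7 without any other library (1.07% to 3.72%).

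UMIs from leukocytes can reach tubule sums as free RNA or in doublets. Each level in proximal tubule was therefore set against that in macrophages of the same library, on the scale shared by 12 classes. Ctss stood at 0.23% of its macrophage level, beside 0.151% to 0.215% for 6 of the 7 macrophage markers set against it, and Ctsc at 0.878%. The other marker, Apoe, stood at 5.49%. Over the 4 libraries Ctsh stood at 19.7%, Ctsz at 26.4%, Ctsb at 29.8% and Ctsa at 53.0%. Ctsd stood at 114% and 139% with BPTES and 56.0% and 60.2% with DMSO, and Acp5 at 123% and 135% against 73.1% and 63.4%. Ctsl stood at 701% and 866% against 483% and 387%. Of all 8 macrophage markers, 3 were called lower with BPTES in proximal tubule and none was at 0, with sums of 216 and 258 CPM against 226 and 228. Apoe made up most of that sum, and C1qa, C1qb, C1qc, Adgre1, Ms4a7 and C3ar1 together had 13.1 and 11.2 CPM against 23.1 and 26.7, lower with BPTES as Ctss was. Their part in the Ctss values there was not tested.

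**Figure D5:**
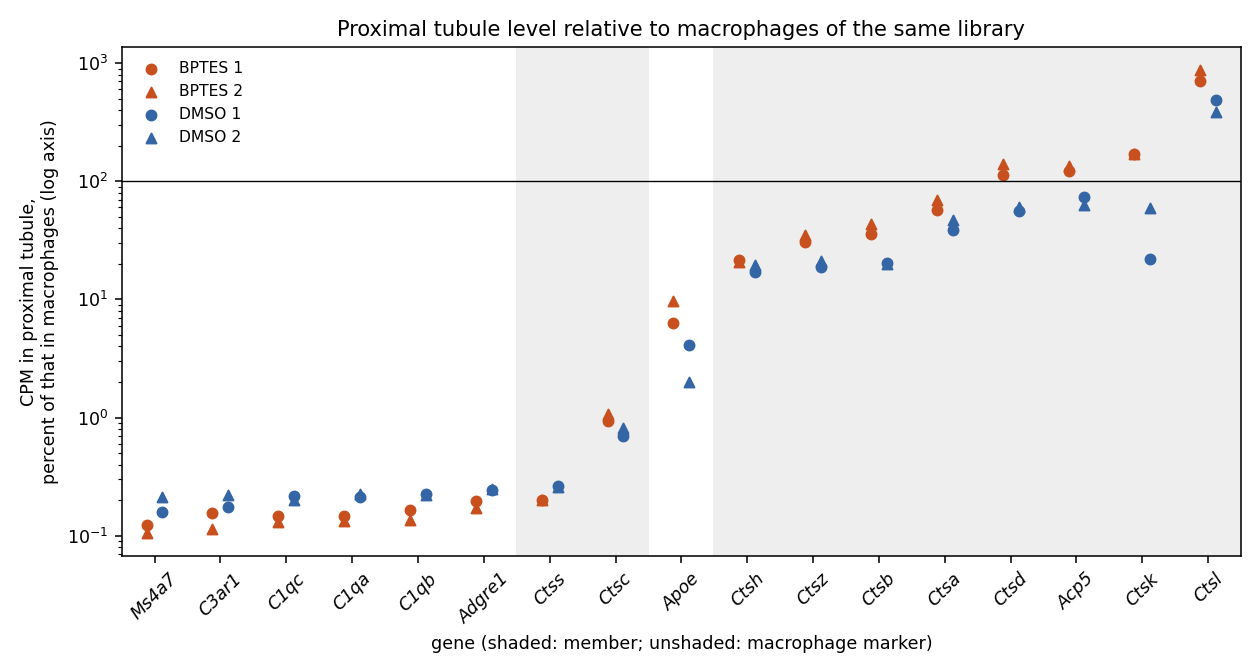
CPM in proximal tubule as a percent of that in macrophages of the same library (log axis), for the 10 genes (shaded) and 7 macrophage markers (unshaded); points are libraries, and the line is an equal level. Ctss at 0.23% lies beside the markers, and Ctsl, at 387% or more, lies above the line in all 4 libraries.

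Shares of cells with a UMI were compared after each cell was thinned to 2000 UMIs, leaving out 0 to 347 shallower cells per class and library. Ctss was found in 97.8% and 98.7% of BPTES macrophages and 99.2% and 99.0% of DMSO macrophages. In proximal tubule it was found in 1.08% and 1.04% of cells with BPTES and 1.94% and 1.78% with DMSO. The shares in endothelium ran from 1.73% to 2.90%. The design note had named T and B cells, not endothelium, for the background share. Whether the Ctss UMIs in proximal tubule came from tubule cells was not tested. Unthinned shares of proximal tubule cells were 8.86% and 7.52% against 12.5% and 12.5%, at median depths of 14976 to 17892.5 UMIs, and those of endothelial cells 8.94% to 13.4% at 10953 to 13154 UMIs.

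Acp5 was found in 5.58% and 6.68% of proximal tubule cells with BPTES and 6.43% and 7.26% with DMSO, against 0.088% to 0.518% of endothelial cells. Of macrophages, 4.32% and 3.80% had an Acp5 UMI with BPTES and 5.01% and 10.3% with DMSO, and of monocytes 10.7% and 8.15% against 21.6% and 11.6%. In T cells the share was 16.6% and 16% against 15.9% and 16.7%. Unthinned, Acp5 was found in 22.5% and 20.3% of BPTES macrophages and 24.7% and 41.0% of DMSO macrophages, so that DMSO 2 stood apart from DMSO 1. Ctsk was found in at most 0.104% of macrophages after thinning.

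No member passed in the other 3 tubule classes either. In the thick ascending limb, where 0.131% of 10706 genes passed, 2 of 8 tested members had an unadjusted p under 0.05 (7.27% of all genes) and DESeq2 called 0. All 8 had a negative log2 fold change (median -0.33), and 5 lay lower without overlap (18.1% of all genes). The 2 were Ctsh, with 20.4 and 11.4 CPM against 22.0 and 31.4 (-0.73 ± 0.30, adjusted p = 0.617), and Ctsl, with 138 and 160 against 160 and 261 (-0.51 ± 0.23, adjusted p = 0.671). Macrophage markers in this class summed to 237 and 186 CPM against 223 and 510, with none called and none at 0, so DMSO 2 stood apart. Ctss had 28 and 10 UMIs against 21 and 188. Proximal tubule markers summed to 2484 and 1620 CPM against 1425 and 726, with none called and none at 0. The part of these lists in the negative values was not tested. In the distal convoluted tubule, where 0.0672% of 10419 genes passed, 1 member had an unadjusted p under 0.05 (14.4% of all genes) and DESeq2 called 0. It was Ctsb, with 365 and 334 CPM against 271 and 254 (0.41 ± 0.18, adjusted p = 0.339). In collecting duct principal cells, where 0.0708% of 11296 genes passed, no member had an unadjusted p under 0.05 (12.9% of all genes) and DESeq2 called 0.

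Summed over all tubule classes, no gene at all passed (0% of 17338), 1 member (Ctss, -0.59 ± 0.13, adjusted p = 0.256) had an unadjusted p under 0.05 (13.7% of all genes), and DESeq2 called that 1 (3.32% of all genes). Summed over all myeloid classes, 5 members were called lower, where 3.82% of 15570 genes were. Ctsd had 128 and 133 CPM against 280 and 246 (-1.01 ± 0.08, adjusted p = 0.0148), and Acp5 narrowly missed with 30.9 and 31.8 against 82.2 and 54.3 (-1.12 ± 0.22, adjusted p = 0.0584). Ctsa, Ctsb, Ctsc and Ctsz were the other 4 called, with adjusted p between 0.0224 and 0.0457, and no member was called without either BPTES library, where 0.0122% and 0% of all genes were.

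Other genes of the lysosome were also counted in macrophages, and their counts stand beside the 3.78% of all genes called lower and 2.06% called higher. Of the 8 genes for processing and sorting of cathepsins, 1 was lower, Lgmn (-0.60 ± 0.13), whose product legumain cleaves cathepsin precursors. Of 28 further lysosomal hydrolases, 5 were lower and 1 higher, with a median of -0.20. Acp2, lysosomal acid phosphatase, had 40.9 and 47.2 CPM against 68.8 and 85.6 (-0.81 ± 0.13, adjusted p = 0.0303), and Gla, α-galactosidase, -0.70 ± 0.12. Arsb, arylsulfatase B, was the gene that rose, from 80.7 and 65.6 CPM with DMSO to 106 and 108 with BPTES (0.55 ± 0.11, adjusted p = 0.0362).

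Of 15 lysosomal membrane genes 1 was lower, Lamp1 (-0.56 ± 0.12), and of 18 proton pump genes 1, Atp6v1a (-0.43 ± 0.08). These counts of calls are close to the share over all genes. Values without overlap were lower with BPTES for 13 of the 18 proton pump genes and 8 of the 15 membrane genes. Over all genes that share was 29.7%. The medians of the 2 lists were -0.22 and -0.11. Of 7 genes for MiT/TFE factors and their regulators 1 was lower, Tfec, which had under 7 CPM in each library (-1.38 ± 0.30). Among the inhibitors, Cstb, cystatin B, fell by 1.06 ± 0.11 on the log2 scale, from 182 and 199 CPM to 82.5 and 100.4. Stfa3 was called higher at under 1 CPM. Of the other cathepsins Ctsf, Ctso, Ctsw and Ctse were tested and not called, and Ctsg was under the count filter.

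A list of genes of osteoclasts or of lipid-associated macrophages gave 2 called lower of 15 tested, Mmp14 (-1.19 ± 0.12), a membrane-bound metalloprotease, and Trem2 (-0.96 ± 0.13), a lipid receptor. In dendritic cells Trem2 had 10.9 and 10.2 CPM against 33.4 and 41.5 (-1.83 ± 0.14, adjusted p = 0.00309), and 3 of 15 genes tested of that list were called lower. Cstb, Acp2, Gla and Lgmn were called lower there too. Of 17 proton pump genes and 7 MiT/TFE genes tested there, 0 were called, so Atp6v1a and Tfec were not. Of the 28 further hydrolases 4 were lower there and 2 higher, Arsb (0.58 ± 0.08) and Ppt1 (0.49 ± 0.08). Of the 15 membrane genes 2 were lower, Lamp1 and Cd68, and 1 higher, Cln3 (0.37 ± 0.08). These dendritic counts stand beside the 2.64% of all genes called lower and 2.41% called higher in that class. Of the 7 genes listed for MHC class II and its loading, Ciita among them, 0 were lower and 1 (Ciita) higher in macrophages. In monocytes 5 were lower (1.22% of all genes), and in proximal tubule 6 (0.798% of all genes). Leukocyte RNA can reach tubule sums, and macrophage markers were called lower in both of these classes too (3 of 8 in proximal tubule). Their part in these counts was not tested. In proximal tubule no gene of the other 8 lists was called. Of the 28 further hydrolases 25 had a positive log2 fold change there (median 0.20). Without overlap, 11 of those 28 and 6 of the 7 MiT/TFE genes lay higher with BPTES (28.9% of all genes). All 12 genes tested of the osteoclast and lipid-associated list were negative, 6 of them lower without overlap (29.2% of all genes). All the lists were written with earlier results of these data known, so their counts are a description.

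Patterns most like each gene were sought over 48 sums (12 classes in 4 libraries), which share libraries and depth, so the coefficients have no test. Ctss was closest to Cybb and Milr1 (Pearson r 0.98 for both), Ctsz to Hexa (0.95) and Ctsa to Sirpa (0.95). Ctsb was closest to Grn and Psap (0.89 for both), the genes of progranulin and prosaposin, and Ctsl to Gstm1 (0.92). Acp5 was closest to Hps1 (0.91) and Ctsd to Srxn1 (0.80). Among the members Ctsa and Ctsb had an r of 0.90 and Ctsc and Ctss one of 0.88, whereas Ctsd and Acp5 had one of -0.36.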

How the data were processed

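Single-cell RNA was measured in 4 kidney libraries. The authors deposited raw UMI counts per gene and barcode, written with Cell Ranger 8.0.1 on build mm10, per the submitters' processing notes; the annotation is not given in the sources used here. Barcodes with at least 500 UMIs, 300 genes and at most 50% mitochondrial UMIs were kept, and 3867 predicted doublets, the highest Scrublet scores at 0.4% per 1000 barcodes, were removed, where Scrublet's own threshold marked 634. Cells were clustered with scanpy 1.11.5 and leidenalg 0.10.2 (3000 variable genes, 40 components, 15 neighbours, resolution 1) without the 10 genes, although the design note had planned to include them. Clusters were named by the mean z-score over all markers of a type with at least 3 detected in 20% of cells. This score replaced one on the 3 best markers after cluster names were seen and before treatment was tested, and it renamed 1 endothelial cluster.

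UMIs were summed per library and class, for tubule and myeloid classes with at least 50 cells in each library. They were tested with edgeR 4.0.16 (R 4.3.3; quasi-likelihood, TMM, filterByExpr), with Benjamini-Hochberg adjustment over all genes of the class and a threshold of 0.05, and the script was tested on simulated data first. All 10 genes are given in macrophages and proximal tubule, and elsewhere those past the threshold, or with an unadjusted p under 0.05 and groups that do not overlap. From other lists the up to 3 called genes with the largest change are named. Trem2, Arsb, Ppt1 and Cln3 in dendritic cells, the other genes named there with no value, and the promoter windows were chosen after values were seen. With 2 libraries per group, an exact permutation test cannot give a p under 0.333. DESeq2 1.42.0 and 10 other settings were tried, and fixed cluster makeup and the minimum of 10 UMIs for genes counted per cluster were added after the data were seen. The members and lists were chosen with earlier results of these data known. Depth per class and library ran from 1680057 UMIs (thick ascending limb) to 124080681 (proximal tubule), and smaller classes were not tested. The ratio to macrophages is not reported here for 1 marker.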

Additional observations from a re-analysis of the deposited data

Results flagged for a closer look

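For 6 genes the effect of BPTES differed between macrophages and proximal tubule by a test of the difference itself (edgeR interaction, adjusted p under 0.05). The differences of log2 fold changes, macrophage minus proximal tubule, were -1.18 for Ctsd, -1.01 for Ctsb, -0.98 for Acp5, -0.92 for Ctsl, -0.78 for Ctsz and -0.63 for Ctsa. In macrophages the fold changes of these genes were all negative, and in proximal tubule they were 0.14, 0.21, -0.11, 0.28, 0.18 and 0.22 in the same order. Both sums came from the same 4 libraries. With predicted doublets kept, 0 members passed this test, where 0.0166% of all genes did.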

How the results depend on the processing

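Of 50 named fold changes 18 were called, and all 18 kept their sign under the 11 alternatives, while 1 (Ctsz in dendritic cells) stayed called under each. Leaving out BPTES 1 ended 12 of the 18 calls and BPTES 2 ended 13, against 1 for each DMSO library, where the lone library left is assumed to vary like the other group. Counts of members called lower with 1 library left out ranged from 0 to 7 in macrophages, 0 to 6 in monocytes, 0 to 5 in neutrophils, 0 to 4 in the thick ascending limb, 0 to 3 in the distal convoluted tubule, 0 to 1 in proximal tubule, 0 to 2 over all tubule classes and 0 to 6 over all myeloid classes. The highest counts came without DMSO 1, where 11.4%, 23.4%, 7.97%, 12.5% and 12.1% of all genes were called in macrophages, neutrophils, thick ascending limb, distal convoluted tubule and all tubule classes, or without DMSO 2 (11% in monocytes, 5.09% in proximal tubule); over all myeloid classes both gave 6 (11% and 5.93%). Counts called higher ranged from 0 to 2 in neutrophils and 0 to 1 in proximal tubule and over all tubule classes, and members whose effect differed between macrophages and proximal tubule from 1 to 7, with 0 when doublets were kept. DESeq2 called 1 lower in proximal tubule (6.98% of all genes were called), 1 over all tubule classes (3.32%) and 3 in monocytes (5.1%). Without the filter on low counts 1 was lower in proximal tubule (9.28%), thick ascending limb (1.24%) and neutrophils (2.54%) each, and 4 in monocytes (8.59%). Monocytes had 3 with doublets kept (3.11%) and 2 at the finer resolution (2.5%), and dendritic cells 1 at that resolution (1.85%). The cause was not tested. The replicate numbers were checked for pairing: deviations of same-numbered libraries had correlations of -0.04 to 0.20. The highest were those of proximal tubule (0.14), thick ascending limb (0.15) and distal convoluted tubule (0.20). The numbers were still taken as names only in every class. With them as a replicate block 0 members were lower in macrophages (0.359% of all genes called), 2 in monocytes (3.66%), 1 over all myeloid classes (1.28%) and 1 in proximal tubule (17.3%), where 1 was higher. Reversed values were all uncalled ones: log2 fold changes in proximal tubule of -0.0070 (without BPTES 2) and -0.064 (without DMSO 1) for Ctsd, whose highest was 0.37, 0.0061 for Ctsc and 0.028 for Acp5 (both without DMSO 2, with -0.32 and -0.24 as their lowest), and of -0.14 for Ctss in neutrophils with doublets kept. Among all genes, the count called in macrophages was 813 and ranged from 2 (without BPTES 2) to 1829 (no filter), in monocytes 319 (7 to 1710), in dendritic cells 662 (229 to 1372), in neutrophils 0 (0 to 2419), in proximal tubule 188 (16 to 2778), in the thick ascending limb 14 (4 to 915), in the distal convoluted tubule 7 (2 to 1408), in principal cells 8 (1 to 620), over tubule classes 0 (0 to 2176) and over myeloid classes 1259 (0 to 2041). Thinned to 1000 UMIs, the Acp5 shares of monocytes overlapped between the groups (5.29% and 4.66% against 13.8% and 4.35%). Depth limits what can be said of Ctsk, which averaged under 5 CPM in each of the 12 classes.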
